A study of Mus musculus with 4 samples.

Results

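The 6 actin genes of the mouse, Acta1, Acta2, Actc1, Actb, Actg1 and Actg2, were followed in ventricular muscle with and without Trpc6, the gene of a calcium-permeable cation channel. They were chosen by gene symbol in the platform annotation, each had 1 probe, and together they were 6 of 19321 genes with a symbol on the array. The choice was made with the higher reading of Acta1 in the knockout already known, so all differences between genotypes of these genes are descriptions, given with no test. Total RNA of ventricle from male mice of the strain 129SV was read in 1 colour (Cy5) on 1 array per sample, for 2 wild-type samples and 2 Trpc6 knockout (Trpc6-/-) samples. The age of the animals, the construct of the deletion and whether the samples of a group came from separate animals are not stated in these sources, so the spread between samples may be technical. In RNA of whole ventricle, fewer cells of a type and less RNA per cell cannot be told apart.

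Actin assembles from monomers into filaments, and vertebrates make it from 6 closely related genes. Actc1 encodes cardiac alpha-actin, the main actin of the thin filament in the adult heart muscle cell, and Acta1 encodes skeletal alpha-actin, which is made in the fetal heart and is known to return in the hypertrophied ventricle. Acta2 and Actg2 encode the alpha- and gamma-actins of smooth muscle, and Acta2 also marks activated fibroblasts. Actb and Actg1 encode the beta- and gamma-actins of the cytoplasm, found in nearly every cell. Muscle actin genes are classical targets of serum response factor, SRF, which binds a DNA element called the CArG box and is itself coupled to the pool of free actin monomers through its MRTF cofactors.

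The sequences upstream of the 3 alpha-actin genes are shown because these genes encode near-identical proteins and differ in where they are used. RefSeq promoter windows of the build GRCm38.p6 were found for 4 of the 6 genes, and each holds 250 bases before and 50 bases after the annotated start. Capitals mark an exact CArG box in Acta1 and Actc1 and, in Acta2, matches with 1 base different.
Acta1 promoter, chr8:123894726-123895025, minus strand: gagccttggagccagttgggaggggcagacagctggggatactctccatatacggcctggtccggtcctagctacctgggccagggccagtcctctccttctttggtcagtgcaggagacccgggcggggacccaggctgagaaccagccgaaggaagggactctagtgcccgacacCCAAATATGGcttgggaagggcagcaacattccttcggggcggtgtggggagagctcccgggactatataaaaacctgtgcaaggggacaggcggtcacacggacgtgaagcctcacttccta
Acta2 promoter, chr19:34255324-34255623, minus strand: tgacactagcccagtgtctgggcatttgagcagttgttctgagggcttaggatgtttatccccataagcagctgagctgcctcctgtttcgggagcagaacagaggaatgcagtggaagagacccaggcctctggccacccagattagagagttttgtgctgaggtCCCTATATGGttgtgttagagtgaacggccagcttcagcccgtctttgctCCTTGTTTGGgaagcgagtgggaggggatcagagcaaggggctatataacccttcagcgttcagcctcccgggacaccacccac
Actc1 promoter, chr2:114052826-114053125, minus strand: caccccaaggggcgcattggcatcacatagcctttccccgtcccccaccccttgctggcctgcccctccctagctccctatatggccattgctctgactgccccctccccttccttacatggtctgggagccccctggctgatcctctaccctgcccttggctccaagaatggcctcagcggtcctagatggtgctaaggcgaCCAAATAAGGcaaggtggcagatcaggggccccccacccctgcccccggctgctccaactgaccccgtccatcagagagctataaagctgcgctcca

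An exact CArG box began 73 bases before the annotated start in Acta1, as CCAAATATGG, and 47 bases before it in Actc1, as CCAAATAAGG. The window of Actg1, at chr11:120348446-120348745, held an exact box 90 bases before the start, as CCATATATGG. Acta2 had no exact match, and its matches with 1 base different, CCCTATATGG and CCTTGTTTGG, began 84 and 34 bases before the start. Acta1 and Actc1 held such matches as well, in lower case above, CCATATACGG and CCTTCTTTGG at 205 and 154 bases before the start of Acta1, and CCCTATATGG, CCTTACATGG and CCAAGAATGG at 175, 138 and 87 bases before that of Actc1. The element reads alike on both strands, so both were searched. Of 32851 windows of the same length, 1.63% held an exact box and 21.1% held one that was exact or had 1 base different. The letters TATAA, searched on both strands and present in 24.9% of windows, began 7 bases before the annotated start in Acta1, 10 bases after it in Acta2 and 33 bases after it in Actc1, and did not overlap a marked CArG box. These matches describe letters only and show no binding.

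The readings are spot medians at 635 nm on the linear scale of the scanner. The median probe read 95.5 to 106 units on the 4 arrays and blank spots read 78.4 to 87.5 units, and 76.3% to 83.2% of gene probes lay above the limit for background, which was 80.8 to 91.5 units. All 6 actin probes were above that limit on all 4 arrays. Trpc6 itself was not above its limit on any array, at 80.5 and 89.2 units in wild type against 84.1 and 82.6 units in the knockout, so it gave no check of the genotype labels. Levels of different probes are not compared, because probes differ in how well they bind. The 12 markers of ventricular muscle cells were above the limit on all 4 arrays. They summed, in the authors' table of processed values, to 161774 to 165205 units in wild type against 163340 to 165620 units in the knockout, a sum carried by Myl2, Tnnt2 and Myl3, while Hey2, a transcription factor of the ventricle, was at 8.7 to 15.9 units.

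Actc1, the cardiac isoform, was one of the brightest probes on every array. It read 45943 and 43450 units in the wild-type pair against 47693 and 39158 units in the knockout pair, and only 2 to 4 probes were brighter. The knockout arrays held both the highest and the lowest of these readings, so the groups overlapped. The highest reading in the scanner files was 65535 units, reached by 1 unnamed probe on 2 arrays, and Actc1 stood at 59.8% to 72.8% of it. The spot median of Actc1 was therefore below the ceiling on each array, while single pixels of its spot may have reached it, which a median does not show. Actc1 also belonged to the 7 to 10 spots per array whose deposited reading was exactly a whole number, all of them at 28986 units or more, while every other spot was deposited with decimals that are rounded here. Per the file headers the scanner read each array at 3 gains, and the sources used here do not say which gain a recorded value came from.

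**Figure D1:**
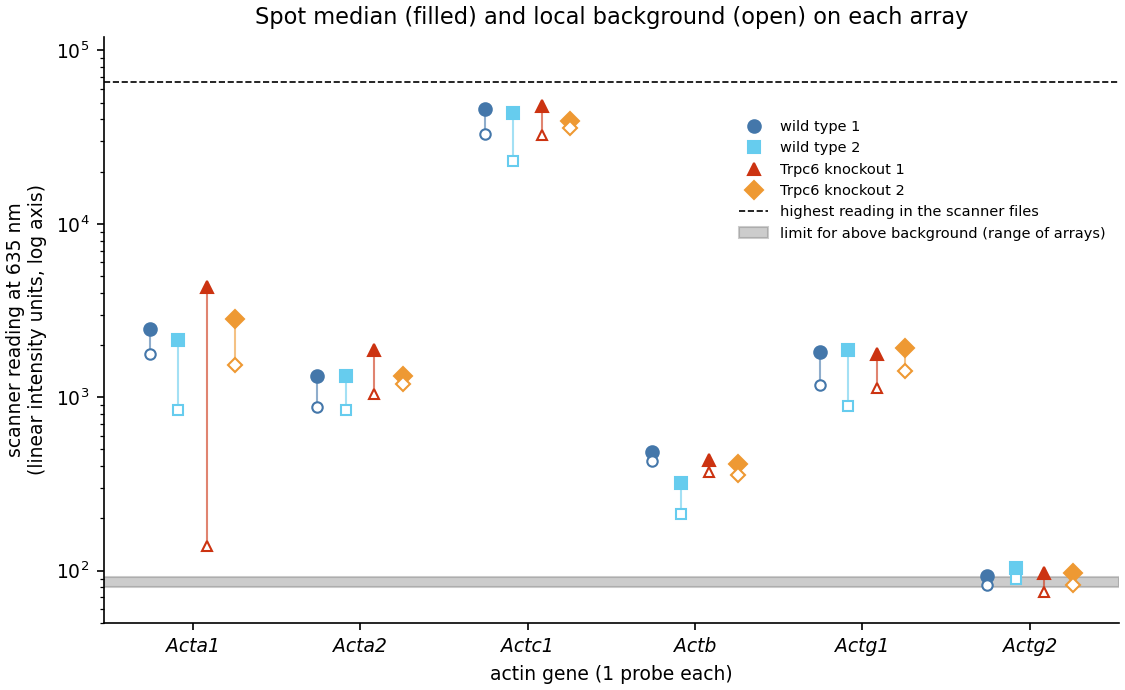
Scanner readings at 635 nm (linear units on a log axis) of the 6 actin probes on the 4 arrays, with the spot median filled and the local background open. Actc1 lies just under the dashed line at 65535 units, Actg2 lies at the grey band of background limits, and the local background of Acta1 on the first knockout array stands apart at 139 units.

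In the authors' table, which subtracts a constant per array and scales each array to a median of 25 units, Actc1 was at 45048 and 34980 units in wild type against 45240 and 39985 units in the knockout. After quantile normalization it was at 15.51 and 15.25 on the log2 scale in wild type and at 15.51 on both knockout arrays. The tie arises because quantile normalization gives the same value to the same rank, and Actc1 was the probe of rank 3 on 3 arrays and of rank 5 on the second wild-type array. Its log2 difference, knockout minus wild type, was 0.13, with means of 15.38 ± 0.18 and 15.51 ± 0.00 (SD, n = 2 arrays). The difference was 0.01 after median scaling, -0.05 on unscaled scanner readings and -1.19 after local background subtraction, so no direction held for Actc1. Its local background was 72.1% and 52.8% of the spot reading in wild type against 68.2% and 91.1% in the knockout. In units it was 22900 to 35700, where blank spots read 78.4 to 87.5 units.

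Acta1, the skeletal isoform, had the widest spread of the 6 genes. It read 2464 and 2150 units in the wild-type pair against 4350 and 2832 units in the knockout pair. Both knockout arrays were above both wild-type arrays, and the first knockout array stood well above the other 3. In the authors' table it was at 2343 and 1664 units in wild type against 4055 and 2814 units in the knockout. Normalized log2 values were 11.28 and 10.93 in wild type against 12.09 and 11.54 in the knockout, and the groups did not overlap on any of the 3 scales. The means were 11.10 ± 0.24 and 11.82 ± 0.39 (SD, n = 2), a log2 difference of 0.71 or 1.64-fold, and only 15 of 15955 genes, or 0.094%, differed by as much in either direction. Since Acta1 was known to differ when it was chosen, that position is no evidence of a genotype effect. Without the first knockout array the difference was 0.44, and it was 0.99 without the second knockout array.

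The spot of Acta1 on that first knockout array was unlike the others in its surroundings. The local background was 1780 and 846 units in wild type, 1540 units on the second knockout array and 139 units on the first knockout array. As a share of the spot reading this was 72.3%, 39.3%, 54.4% and 3.19%. Among 284 spots within a factor of 2 in brightness on the first knockout array, only 0.704% had a lower share, whereas the other 3 arrays placed Acta1 between the percentiles 45.3 and 75.3. Subtracting the local background left 682 and 1304 units in wild type against 4212 and 1290 units in the knockout, so that the groups overlapped on the linear scale. After normexp correction and quantile normalization of the subtracted readings, the log2 difference was 1.37, and these values did not overlap, at 9.75 and 10.17 in wild type against 11.99 and 10.66 in the knockout. The part of this spot in the difference of Acta1 was not tested.

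Acta2, the smooth muscle alpha-actin, also read highest on the first knockout array. It was at 1334 and 1332 units in the wild-type pair against 1879 and 1321 units in the knockout pair, so the second knockout array was the lowest of the 4 on the scale of the scanner. In the authors' table the order changed, with 1234 and 1004 units in wild type against 1707 and 1269 units in the knockout, and the groups no longer overlapped. Normalized log2 values were 10.38 and 10.25 in wild type against 10.86 and 10.39 in the knockout, with means of 10.32 ± 0.09 and 10.63 ± 0.33 (SD, n = 2) and a difference of 0.31. Of all genes, 1.42% differed by as much. The difference was 0.08 without the first knockout array and 0.55 without the second knockout array. It was -0.34 after local background subtraction, so its direction depended on whether that background was subtracted.

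**Figure D2:**
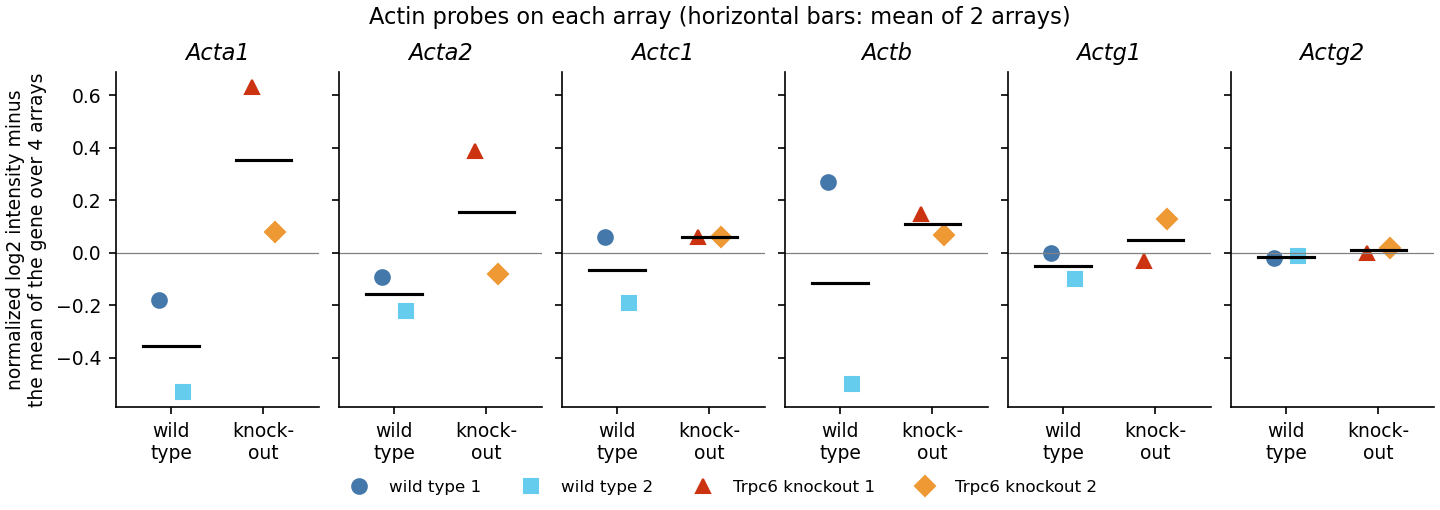
Normalized log2 intensity of each actin probe minus its own mean over the 4 arrays, by genotype, with a horizontal bar at the mean of 2 arrays. Acta1 runs from -0.53 to 0.63 and Actb from -0.50 to 0.27, while Actg2 stays between -0.02 and 0.02.

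The cytoplasmic actins had overlapping groups. Actb, beta-actin, read 481 and 319 units in the wild-type pair against 437 and 413 units in the knockout pair, and it was at 395 and 187 units and at 336 and 339 units in the authors' table. The second wild-type array was low and the other 3 arrays were close to each other. Normalized log2 means were 8.45 ± 0.54 in wild type against 8.67 ± 0.06 in the knockout (SD, n = 2), a difference of 0.22. Leaving out the second wild-type array turned it to -0.16, leaving out the first gave 0.61, and local background subtraction gave -0.07. Of all genes, 4.18% differed by as much. The probe of this gene, often taken as a constant reference, thus ranged over 0.77 on the log2 scale, wider than 99.4% of genes, dim ones included. Its local background was 89.3% and 66.6% of the spot reading in wild type against 85% and 85.9% in the knockout. After local background subtraction it was at 6.85 and 7.14 in wild type against 6.90 and 6.93 in the knockout. The second wild-type array was then the highest, so this range does not show that the transcript varied. Actg1, cytoplasmic gamma-actin, read 1818 and 1872 units in wild type against 1775 and 1912 units in the knockout. The groups overlapped on this scale. Its normalized log2 means were 10.77 ± 0.07 and 10.87 ± 0.11 (SD, n = 2), a difference of 0.10 that was 0.02 without the second knockout array, 0.18 without the first, 0.00 on unscaled scanner readings and -0.40 after local background subtraction.

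Actg2, the smooth muscle gamma-actin of gut and bladder, was barely above background. It read 93.2 and 104 units in wild type against 96.5 and 96.8 units in the knockout, against limits of 80.8 and 91.5 units and of 85.5 and 83.3 units. In the authors' table this left 14.5 and 13.1 units in wild type against 12.9 and 15.9 units in the knockout, and these groups overlapped. Normalized log2 means were 6.08 ± 0.01 and 6.11 ± 0.02 (SD, n = 2), a difference of 0.02. At this level the offset added before the logarithm compresses any change, so the small difference does not show a constant level.

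The actin transcripts are alike in sequence, and a probe for 1 of them may also bind another. The sequences of the probes were not used here, so the share of cross-hybridisation in any reading was not tested. On scanner readings all 3 alpha-actins were highest on the first knockout array. On the second knockout array Actc1 and Acta2 were lowest, while Acta1 had its second highest reading.

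Differences within an array do not depend on how arrays are scaled against each other. Relative to Actc1 on the same array, before scaling, Acta1 was at -4.23 and -4.36 on the log2 scale in wild type against -3.46 and -3.80 in the knockout, a difference of 0.66 with an SD between samples of 0.18. Both knockout arrays were above both wild-type arrays. Acta2 relative to Actc1 was at -5.13 and -5.06 in wild type against -4.69 and -4.92 in the knockout, a difference of 0.29 with an SD of 0.12. These values did not overlap, whereas the scanner readings of Acta2 alone did. The second knockout array held the lowest reading of both Acta2 and Actc1, at 1321 and 39158 units. How many of all genes would not overlap relative to Actc1 was not computed. The same differences were 0.18 for Actb and 0.05 for Actg1, each smaller than its SD of 0.31 and 0.21. These numbers show unequal readings of Acta1 and Actc1 between arrays, not that Actc1 was constant, and a ceiling on Actc1 would act on all of them.

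All 6 actin genes had a normalized log2 difference above 0, with a median of 0.17, while 51.1% of all genes did and their median was 0.002. In the fit of all genes with limma, 0 of 15955 genes had an adjusted p under 0.05, which is 0% of those tested, and 6.74% had an unadjusted p under 0.05. The groups did not overlap in 3 of the 6, namely Acta1, Acta2 and Actg2, against 36.8% of all genes. All 3 were higher in the knockout, and 19.4% of all genes were higher there without overlap. Since the members were chosen from this comparison, nothing is read from these counts. Within the family, 5 of 6 genes were lowest on the second wild-type array, against 32.3% of all genes in normalized values. In the authors' table the second wild-type array was also lowest for 5 of 6, against 45.8% of genes with a value on all arrays and 59.5% of those averaging over 100 units. The part of that array in the shared direction was not tested. Without it, the differences were 0.54 for Acta1, 0.25 for Acta2, 0.00 for Actc1, -0.16 for Actb, 0.05 for Actg1 and 0.03 for Actg2.

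**Figure D3:**
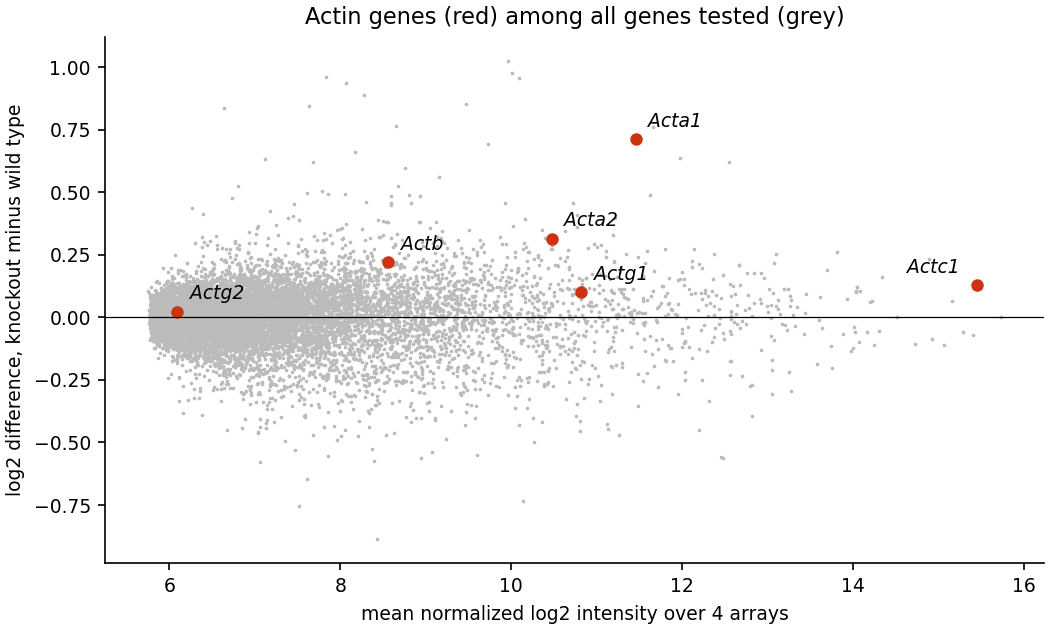
Log2 difference, knockout minus wild type, against the mean normalized log2 intensity over 4 arrays for all 15955 genes tested (grey) and the 6 actin genes (red). Acta1 at 0.71 lies at the upper edge of the cloud, and Actc1 at 0.13 lies at its bright end.

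The genes whose 4 values lay closest to those of an actin gene were found by the distance between log2 values centred on each gene, over the 4 arrays. For Acta1 they were Tuba4a, an alpha-tubulin, at a distance of 0.26, Tubb4b, a beta-tubulin, at 0.31, then Gm12201, Spen and 4933417A18Rik at 0.34 to 0.39, where a flat profile lay at 0.85. Tuba4a was at 12.50 and 11.97 in wild type against 12.99 and 12.73 in the knockout, with the same order of arrays as Acta1. For Acta2 the closest was Flnc, filamin C, an actin crosslinker of striated muscle, at a distance of 0.05, with 7.94 and 7.81 in wild type against 8.39 and 7.99 in the knockout. Pdia3, Ndrg4, Igf2 and Prelid1 followed at 0.09 to 0.17. For Actb they were Ptp4a2, Oxnad1, Rxrg, Krtap5-1 and Fh1, at 0.05 to 0.09, all low on the second wild-type array. Among the actins themselves, the closest pairs were Actg1 and Actg2 at 0.15 and Actc1 and Actg1 at 0.16. These genes varied least of the 6 over the arrays, with ranges of 0.26 for Actc1, 0.23 for Actg1 and 0.04 for Actg2. Profiles that are nearly flat lie close to each other, so these distances show no shared pattern. Acta2 lay 0.43 from Acta1 and 0.39 from Actc1, where a flat profile lay 0.47 from it. Being closer than a flat profile is common, since 7724 genes were so for Acta1, 6935 for Acta2 and 7846 for Actb. With 4 arrays and 15955 genes such matches are a description.

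Genes that work with actin were counted from lists. None of the genes in these lists passed the limma test over all genes. At an unadjusted p under 0.05 in limma, 3.67% of all genes lay higher and 3.08% lower, the background for the counts that follow. Of 18 lists, markers included, 16 had a median on both sides of 0 over the processing alternatives, so these medians carry no direction. Nucleation and elongation stayed above 0 in all of them, between 0.003 and 0.094, as did red blood cell markers, between 0.301 and 1.502. In the thin filament and its length control, 12 of 23 genes lay higher in the knockout and 11 lower, with a median log2 difference of 0.03, and 1 in each direction had an unadjusted p under 0.05. Tnnt1, slow skeletal troponin T, was at 7.27 and 7.10 in wild type against 7.61 and 7.56 in the knockout, with a difference of 0.40 ± 0.07 (limma SE) and an adjusted p of 0.727. Both knockout arrays were above both wild-type arrays. Capza2, a subunit of the protein that caps the barbed end, was at 9.62 and 9.95 in wild type against 9.50 and 9.26 in the knockout, a difference of -0.40 ± 0.14 (adjusted p = 0.727). Tnni3, cardiac troponin I, was at 13.99 ± 0.07 and 14.09 ± 0.07 (SD, n = 2).

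Among genes of monomer binding, severing and turnover, 14 of 24 lay higher and 10 lower, with a median of 0.02. At an unadjusted p under 0.05 there were 0 higher and 2 lower, Twf2, a monomer-binding twinfilin, at -0.31 ± 0.09, and Capg, a capping protein, at -0.16 ± 0.05 (limma SE). Among genes of nucleation and elongation 16 of 24 lay higher, with a median of 0.04, and 3 higher and 0 lower had an unadjusted p under 0.05. These were Arpc5 of the Arp2/3 complex at 0.16 ± 0.04, Fhod3, the formin of heart muscle that maintains thin filaments, at 0.26 ± 0.07, and Wasl, an activator of the Arp2/3 complex, at 0.14 ± 0.05 (limma SE). Fhod3 was at 9.53 and 9.40 in wild type against 9.67 and 9.79 in the knockout. Among genes of actin folding and N-terminal processing 9 of 16 lay higher, with a median of 0.01 and 0 at an unadjusted p under 0.05 in limma. Cct2 and Cct5, subunits of the chaperonin that folds actin, were at 0.13 ± 0.05 and -0.38 ± 0.17 (limma SE). Of the actin-related and actin-like genes 8 of 11 lay higher, with a median of 0.03 and 0 at an unadjusted p under 0.05 in limma. All these adjusted p-values were at or above 0.727.

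The targets of SRF other than actins did not share a direction. Myocd, myocardin, a cofactor of SRF in heart and smooth muscle, was at 6.28 and 6.24 in wild type against 6.40 and 6.38 in the knockout, a difference of 0.13 ± 0.04 (limma SE, adjusted p = 0.727). Of 27 such targets 12 lay higher and 15 lower, with a median of 0.00, and 1 gene each way had an unadjusted p under 0.05. Tagln2, a transgelin, was at 0.13 ± 0.04 and Mcl1, a survival factor, at -0.24 ± 0.06 (limma SE). Of 20 genes of the fetal and hypertrophic programme 9 lay higher and 11 lower, with a median of 0.00, and 4 higher and 1 lower had an unadjusted p under 0.05. Besides Tnnt1 these included Nppa, atrial natriuretic peptide, at 11.68 and 11.64 in wild type against 11.99 and 12.61 in the knockout, Hspb1, a small heat shock protein, at 0.22 ± 0.04, and Xirp1, an actin-binding protein of the intercalated disc, at 0.17 ± 0.05 (limma SE). These 4 are the higher ones. The 1 gene that was lower is not named, because up to 4 genes per list were named by smallest p. Nppa was highest on the second knockout array and Acta1 on the first.

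Acta1 and Acta2 are also made by other cells that a piece of ventricle can hold. Of 20 skeletal muscle markers on the array 14 were kept, 11 of them higher in the knockout, with a median of 0.01. The other 6, the fast skeletal myosins Myh1, Myh2 and Myh4, the calcium pump gene Atp2a1, the calcium release channel gene Ryr1 and Mybpc1, were not above background on any array. Actn3, Tnnt3 and Tnnc2 were above background on only 2 arrays, and Myog was at 2.4 to 4.6 units of the authors' table. Several markers were clearly above background on all 4 arrays. Myh8, the perinatal myosin, was at 367 to 432 units of the authors' table, Mybpc2, a myosin-binding protein of fast muscle, at 103 to 132 units, and Myl1, a skeletal light chain, at 262 and 93.9 units in wild type against 155 and 178 units in the knockout. The embryonic myosin Myh3 was at 257 to 393 units with 1 probe and at 2.6 to 5.2 units with another. Myh6, a myosin among the ventricular markers, was at 16604 to 19269 units. Whether the probes of Myh8 and Myh3 also bind it was not tested, so their readings do not show that these genes are expressed. None of Myh8, Mybpc2, Myl1 and Myh3 was highest on the first knockout array by its brightest probe, in that table or in normalized values, whereas Acta1 was. Others of the list were highest there on both scales, such as Ckm and Mylpf. In the authors' table Ckm was at 3992 and 3185 units in wild type against 4231 and 4096 units in the knockout. Mylpf, a skeletal light chain, was at 11.2 and 11.8 units in wild type against 14.6 and 11.1 units in the knockout. The list summed to 5359 and 4144 units in wild type against 5332 and 5384 units in the knockout in the authors' table, most of it from Ckm, muscle creatine kinase, which the heart also makes. Of 10 atrial markers 7 lay higher, and the sum was 3457 and 3032 units in wild type against 4125 and 6310 units in the knockout, carried by Nppa. The atrial light chain Myl7 was at 12.9 and 16.3 units in wild type against 10.2 and 19.0 units in the knockout. Myl4, the other atrial light chain, was at 29.4 and 106 units in wild type against 38.5 and 25.8 units in the knockout, and the second wild-type array stood apart. The part of skeletal or atrial muscle in the actin differences was not tested.

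Smooth muscle cell markers, which accompany Acta2 in vessel walls, lay higher in 4 of 10 kept genes, with a median of 0.00. Their sum was 382 and 311 units in wild type against 351 and 399 units in the knockout in the authors' table. Myh11, smooth muscle myosin, was at 24.4 and 21.4 units in wild type against 20.2 and 24.8 units in the knockout, and Tagln, transgelin, at 101 and 92.7 units and at 99.1 and 97.6 units. Neither was highest in that table on the first knockout array, where Acta2 was. In normalized log2 values Tagln was highest there by a small margin, at 7.28 and 7.32 in wild type against 7.36 and 7.24 in the knockout, and Myh11 was not, at 6.28 on both wild-type arrays against 6.26 and 6.29. Myocd was also highest there in normalized values, at 6.28 and 6.24 in wild type against 6.40 and 6.38 in the knockout. By its dimmer probe Smtn was highest there in the authors' table, at 4.6 and 4.9 units in wild type against 7.5 and 4.8 units in the knockout. The part of smooth muscle in the difference of Acta2 was not tested. Pericyte markers, with a median at -0.01, lay higher in 5 of 10 and summed to 1505 to 1883 units in wild type against 1581 to 1684 units in the knockout. Activated fibroblast markers lay higher in 6 of 9 and summed to 103 to 110 units and 100 to 122 units, with Postn, periostin, at 20.9 to 29.4 units over the 4 arrays.

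Red blood cell markers moved more than any other list, with 4 of 4 kept genes higher in the knockout and a median log2 difference of 0.91. They summed to 549 and 1434 units in wild type against 1930 and 2037 units in the knockout in the authors' table, so the first wild-type array stood apart. Hba-a2, an alpha-globin, was at 8.73 and 10.17 on the log2 scale in wild type against 10.45 and 10.50 in the knockout. Without the first wild-type array the median of the list was 0.30. Slc4a1, the anion exchanger of the red cell membrane, was not above background on any array. The part of blood in the actin differences was not tested.

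**Figure D4:**
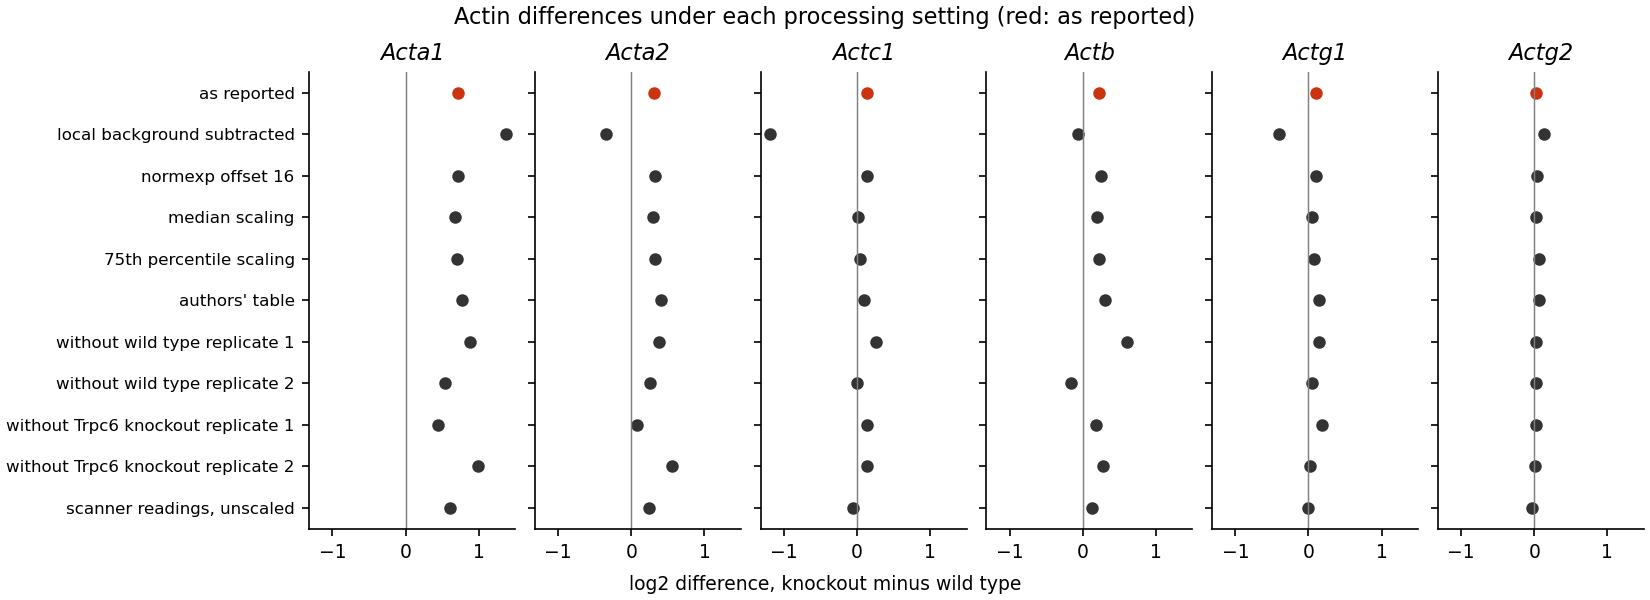
Log2 difference, knockout minus wild type, of each actin gene under each processing setting, with the reported value in red. Acta1 stays between 0.44 and 1.37, and Actc1 ranges from -1.19 to 0.26.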

How the data were processed

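The 6 actin genes and all gene lists were chosen with earlier results of these data known. The deposited scanner files give linear intensity, a median per spot and one for the background around it, both at 635 nm, per the file headers. Their deposited table of processed values, also linear intensity, is a straight line of the scanner values per array, with residuals of at most 0.0523 units. It subtracts 78.4 to 87.7 units and leaves 3714 to 4955 cells of dim probes empty.

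Spot medians were corrected with normexp (limma 3.58.1, R 4.3.3) with an offset of 50 and no local background subtraction, control spots were left out, and log2 values were quantile normalized. A probe was above background when it exceeded the 95th percentile of blank and negative control spots of its array, and was kept if above it on 2 arrays or more. The brightest kept probe stood for a gene, which gave 15955 genes. Symbols came from the platform annotation, updated through gene ID. All were fitted with lmFit and eBayes with no covariates and adjusted by Benjamini-Hochberg, with a threshold of 0.05. An exact permutation test of 2 against 2 arrays cannot give a two-sided p under 0.333. The fit was tested on simulated data. Precision is limited by the number of arrays.

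Named by rule are all actin probes, up to 4 genes per list by smallest p, and the 5 genes closest to each actin probe that spans at least 0.5 on the log2 scale. Other list genes that are named, such as Myh8, Mybpc2, Myl1, Myh3, Mylpf, Myh11, Tagln, Smtn, Myl7, Hey2 and Slc4a1, were not chosen by that rule. Marker lists not described beside a result (endothelial, fibroblast and macrophage) had 10, 11 and 11 kept genes, with medians of -0.05, 0.04 and 0.10, and 0 genes past the limma test. The result of 1 further list is not reported here. Alternatives changed background, scaling, filter, source, variance model, replicate term and arrays used.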

Additional observations from a re-analysis of the deposited data

How the results depend on the processing

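Acta1 kept a difference above 0 under every alternative run, from 0.44 to 0.99 with an array left out and from 0.61 to 1.37 otherwise. Local background subtraction moved most values: 1.37 for Acta1, -0.34 for Acta2, -1.19 for Actc1, -0.40 for Actg1 and 0.13 for Actg2, and, relative to Actc1 on the same array, 2.40 for Acta1, 0.77 for Acta2, 0.93 for Actb, 0.68 for Actg1 and 1.13 for Actg2. The local background was high around bright spots, at 22900 to 35700 units around Actc1 and 75 to 89.8 units around Actg2. Whether it holds signal of the spot itself was not tested, so the subtracted values are not taken as the more correct ones. The cause of these shifts was not tested. Actg2 was at 0.04 with a normexp offset of 16 and at 0.06 with 75th percentile scaling and in the authors' table. On unscaled scanner readings, an alternative chosen after seeing the data, Actc1, Actg1 and Actg2 were at -0.05, 0.00 and -0.03. With an array left out, Acta2 ranged from 0.08 to 0.55, Actc1 from 0.00 to 0.26, Actb from -0.16 to 0.61, Actg1 from 0.02 to 0.18 and Actg2 from 0.01 to 0.03.

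The count of genes past the limma test stayed at 0 except without the second wild-type array, where it was 1, a red blood cell marker, so it ranged from 0 to 1. At an unadjusted p under 0.05 the split was 585 higher and 491 lower as reported, 397 and 676 with median scaling and 718 and 415 with 75th percentile scaling. Whether the replicate numbers pair the samples is not stated in these sources. Deviations of same-numbered arrays correlated at 0.097 over genes, which with 2 arrays per group cannot exclude a pairing. The replicate block gave 0 genes past the limma test and left every actin difference as it was (0.71 for Acta1). It gave 628 higher and 520 lower at an unadjusted p under 0.05 in limma. Of 18 list medians, 16 lay on both sides of 0 over the alternatives. The mean over probes of a gene was not run, because each actin gene had 1 probe.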
